A study of Mus musculus with 36 samples.

Results

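The 36 genes described here encode carriers of amino acids, small peptides and related solutes such as taurine, creatine and betaine, a list of names taken by symbol from the 53715 genes counted in mouse kidney RNA. All 36 were found, and 34 passed the filter on low counts that left 15637 genes for testing. Slc7a10, which encodes the small neutral amino acid exchanger asc-1, and Slc7a11, which encodes the cystine and glutamate exchanger xCT, did not. Messenger RNA was sequenced from the whole kidney in 36 mice, which form 4 groups of 9. STZ-cKOt mice were Bmal1 lox/lox/Pax8-rtTA/LC1 animals that received streptozotocin (STZ), a toxin of the insulin-producing beta cells, and STZ-control mice were Bmal1 lox/lox littermates given the same toxin. PBS-cKOt and PBS-control mice were the same genotypes injected with phosphate-buffered saline. All 4 groups carried the floxed alleles and drank doxycycline at 2 mg/ml for 2 weeks from an age of 8 weeks, which in cKOt mice switches on Cre recombinase and removes Bmal1 (gene symbol Arntl), an activator of the circadian clock. The Pax8 promoter drives the doxycycline-dependent activator along the renal tubule, so vessels, glomeruli and immune cells of cKOt kidneys keep the gene. Injections of STZ at 50 mg/kg ran over 5 days from 1 week after doxycycline, and tissue was taken 8 weeks after the last of them, 9 h after lights on. The series asked what a broken tubular clock does to glucose production by the kidney and to blood glucose in diabetes.

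Nearly all filtered amino acids return to the blood across the proximal tubule. Carriers in the apical brush border take them up from the urine, and carriers in the basolateral membrane let them out toward the capillaries or supply the cell from the blood. Several work as pairs of a heavy and a light chain: rBAT (Slc3a1) holds b0,+AT (Slc7a9) in the apical membrane, and 4F2hc (Slc3a2) holds LAT2 (Slc7a8) and y+LAT2 (Slc7a6) in the basolateral one. In people, defects of the apical pair cause cystinuria, defects of B0AT1 (SLC6A19) cause Hartnup disorder, and loss of the lysosomal cystine carrier (CTNS) causes cystinosis. Further members feed any growing cell, move amino acids out of lysosomes, or cross the inner mitochondrial membrane. The members were sorted by these roles into 9 apical, 7 basolateral, 11 cell supply, 6 lysosomal or endomembrane and 3 mitochondrial carriers. The placement is general knowledge of the proximal tubule, not a measurement here, and Slc6a6 and Slc36a1 are known at more than 1 site.

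Between 16.89 and 22.35 M reads (M, 1000000) per library were assigned to genes. Levels are given as counts per 1000000 assigned reads (CPM), so 1 CPM is about 20 reads. Markers of proximal, distal, podocyte, endothelial, stromal and immune cells were detected in every group. The targeted gene was read at 12.9 to 17.4 CPM in the 18 cKOt libraries and at 1.09 to 2.64 CPM in 17 of 18 control libraries. The count covers the whole gene, and the deletion cannot be read from it. Ciart, a clock gene known to be activated by BMAL1, was read at 1.10 to 3.62 CPM in cKOt libraries and at 12.9 to 32.5 CPM in those 17. The library labelled STZ-control 2 went against its label, with 13.4 CPM of Arntl and 1.95 CPM of Ciart. Leaving it out changed none of the calls of members below. STZ-control 7 and 8 and PBS-cKOt 1 and 3 stood apart on the second principal component, which held 14% of the variance. Log2 CPM had slopes on log2 exon length of -0.17 to -0.0753 in these 4, relative to each gene's mean. The next was -0.0605, in PBS-control 3. The 4 were known from an earlier analysis of these data. All were kept, and a member's call that depends on them is given with and without them. Calls of genes outside the members were not rechecked with libraries left out. In whole tissue, fewer cells of a type and less RNA per cell cannot be told apart.

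The promoter windows of 29 members were searched for the E-box, the motif CACGTG through which BMAL1 and its partner CLOCK bind DNA. Windows of 300 bases were used, from 250 before to 50 after an annotated start. Of the 43 member windows 4 held an E-box (9.30%), as did 2346 of all 32817 windows (7.15%). They belong to Slc36a1, Slc25a15, Slc25a13 and Slc43a1. The first 3 are printed 5′ to 3′ because their RNA differed between genotypes in PBS mice, with the E-box in capitals (RefSeq, GRCm38.p6). Slc36a1 lies at chr11:55204090-55204389 on the plus strand, Slc25a15 at chr8:22398228-22398527 and Slc25a13 at chr6:6217124-6217423, both on the minus strand.
Slc36a1: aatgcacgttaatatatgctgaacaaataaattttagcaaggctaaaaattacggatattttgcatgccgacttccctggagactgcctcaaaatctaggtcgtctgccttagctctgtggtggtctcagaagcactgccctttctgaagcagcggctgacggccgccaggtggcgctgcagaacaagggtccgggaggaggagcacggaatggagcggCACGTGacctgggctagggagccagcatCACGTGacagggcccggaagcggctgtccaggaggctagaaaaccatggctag
Slc25a15: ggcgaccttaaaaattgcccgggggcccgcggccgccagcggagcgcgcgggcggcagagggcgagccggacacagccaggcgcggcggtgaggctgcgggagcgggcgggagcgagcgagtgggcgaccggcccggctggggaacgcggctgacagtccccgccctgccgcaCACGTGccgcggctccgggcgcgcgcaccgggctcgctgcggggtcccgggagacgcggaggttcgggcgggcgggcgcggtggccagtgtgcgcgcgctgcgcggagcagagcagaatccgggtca
Slc25a13: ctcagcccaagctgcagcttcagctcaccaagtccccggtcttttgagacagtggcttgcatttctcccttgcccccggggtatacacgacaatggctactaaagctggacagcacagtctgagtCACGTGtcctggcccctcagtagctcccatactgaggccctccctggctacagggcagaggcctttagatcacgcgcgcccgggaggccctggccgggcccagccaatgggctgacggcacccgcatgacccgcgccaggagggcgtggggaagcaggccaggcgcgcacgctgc

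The E-boxes began 31 and 3 bases before the start in Slc36a1, 77 before it in Slc25a15 and 125 before it in Slc25a13. A second window of Slc25a15 held no E-box. The D-box of clock output factors, TTATGTAA or TTACGTAA, was in 0 of 43 member windows and in 1.05% of all windows. The motif of REV-ERB and ROR receptors, AGGTCA, was in 8 of 43 (18.6%) against 16.3% of all windows, and in Slc36a1 it overlapped an E-box. The glucocorticoid receptor motif, AGAACA, was in 7 (16.3%) against 19.0%, and the ATF4 element TGATGNAAT in 0 against 0.966%. All motifs were read on both strands, and a match describes letters, not binding.

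Apical carriers were the most abundant members per exon length. Slc3a1 led with a mean over 36 libraries of 261 CPM per kb of exon, then Slc6a18 (the neutral amino acid carrier B0AT3) with 123 and Slc6a19 (B0AT1) with 62.9. Slc6a6 (taurine) had 53.0, Slc7a9 47.6, Slc3a2 42.6 and Slc6a8 (creatine) 42.2 CPM per kb. The light chain Slc7a9 was thus read per length at less than its heavy chain Slc3a1. Slc7a13, another partner of Slc3a1 that is not a member, had group means of 208.0 to 414.7, beside 244.1 to 284.7 for Slc3a1. The basolateral heavy chain Slc3a2 stood above the light chains among the members, Slc7a8 (28.0) and Slc7a6 (1.42). Slc7a7, a further light chain that is not a member, had group means of 36.2 to 47.2, beside 39.1 to 48.9 for Slc3a2. Mitochondrial carriers lay between 12.6 for Slc25a12 and 38.9 for Slc25a13. Among cell supply carriers Slc38a2 (the glutamine carrier SNAT2) was highest at 10.5, and 8 of 11 were under 1 CPM per kb. Slc7a10 was read 0 to 7 times and Slc7a11 1 to 14 times per library. Where neighbours in this order differ by little, as Slc3a2 and Slc6a8 do, the group means crossed.

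**Figure D1:**
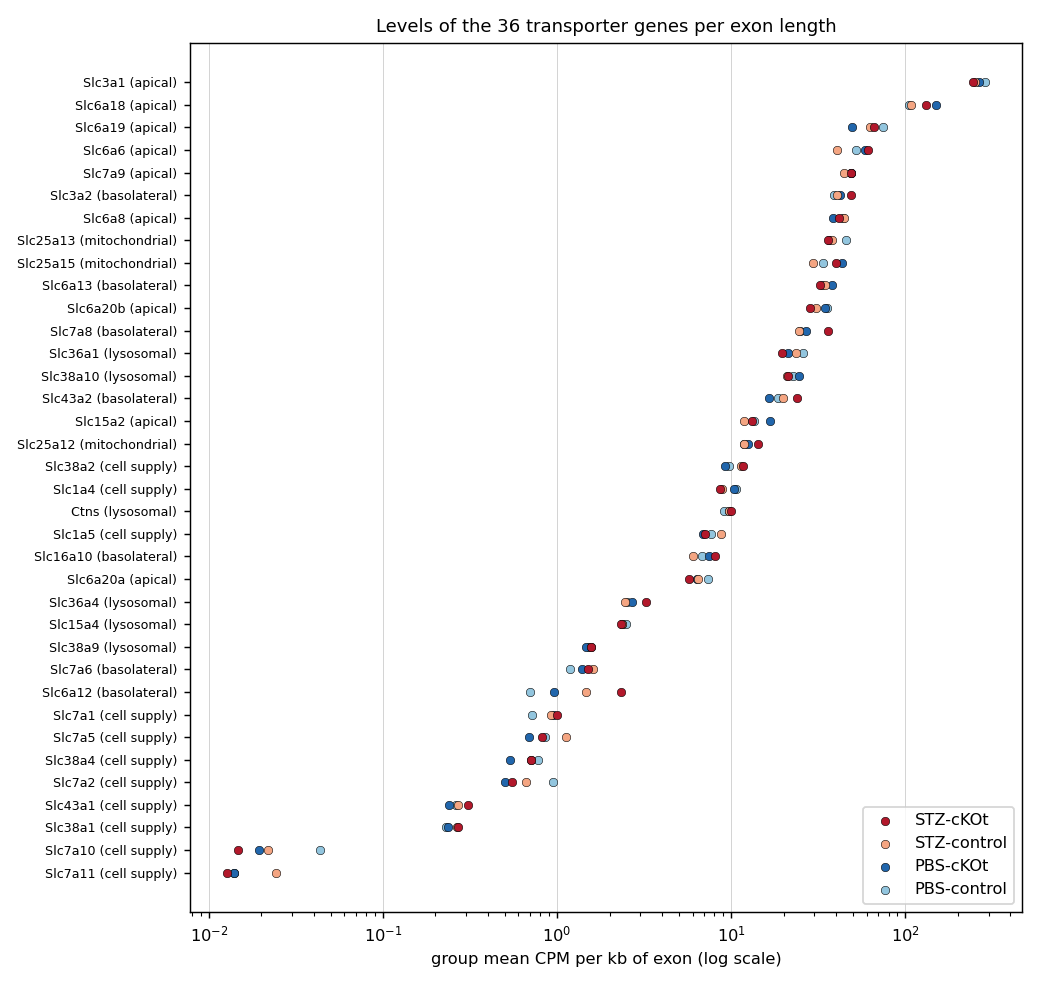
Group mean CPM per kb of exon for the 36 genes on a log axis, 1 point per group, ordered by the mean of the groups. Apical carriers fill the top 3 places, from Slc3a1 at 261 to Slc6a19 at 62.9, and Slc7a10 and Slc7a11 lie far below the rest.

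**Figure D2:**
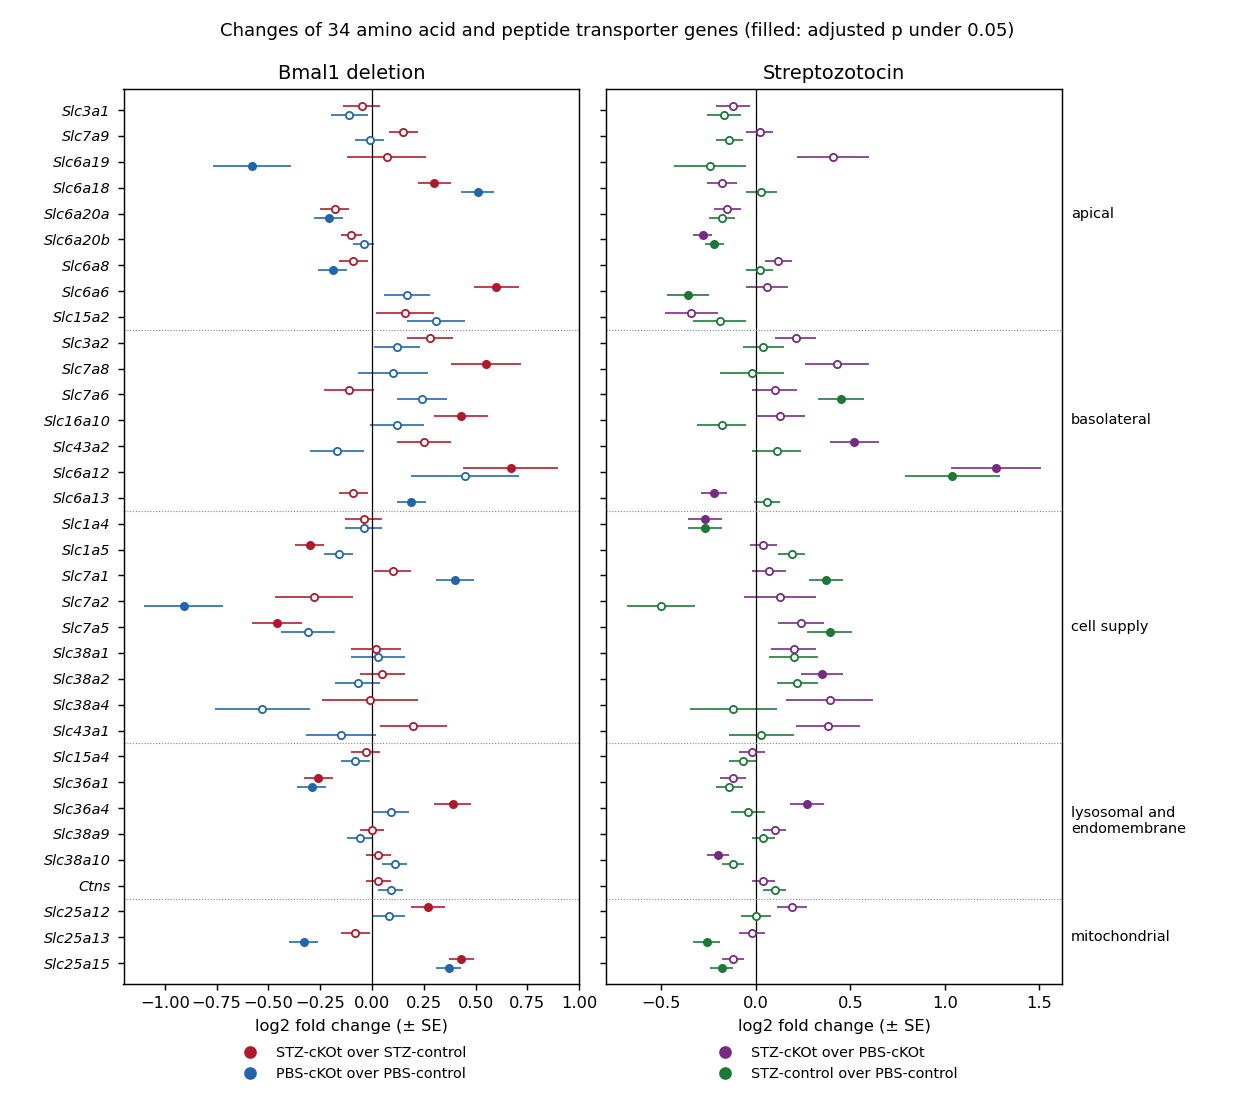
Log2 fold change with its standard error for the 34 tested genes, by role: Bmal1 deletion on the left (red in STZ mice, blue in PBS mice) and streptozotocin on the right (purple in cKOt, green in control mice). Filled points have an edgeR adjusted p under 0.05, and most filled points lie within 0.6 of 0.

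Deleting Bmal1 in mice without diabetes raised some carriers and lowered others at the same membrane. At the apical side Slc6a18 was higher in PBS-cKOt, and its neighbour Slc6a19 was lower. Among the carriers inside the cell the mitochondrial ornithine carrier Slc25a15 was higher, and the aspartate and glutamate carrier Slc25a13 and the lysosomal carrier Slc36a1 were lower. The largest difference was in Slc7a2, the cationic amino acid carrier CAT2, which fell to 4.60 CPM in PBS-cKOt against 8.62 CPM in PBS-control. Of the 34 tested members 10 were called (29.4%), 4 higher and 6 lower, at an edgeR adjusted p under 0.05. Of all genes tested 23.4% were called, 10.9% higher and 12.5% lower, so the share among members is near the background. The members' median log2 fold change was -0.024, beside 0.002 for all genes.

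Slc6a18 ran from 557.5 through a median of 655.8 to 739.2 CPM in PBS-cKOt, and from 378.0 through 453.7 to 518.9 CPM in PBS-control. All 9 PBS-cKOt libraries stood above every PBS-control library. It differed on the log2 scale by 0.51 ± 0.08 (SE; adjusted p = 6.28e-06), or 1.42-fold. Slc6a19 lies on the same strand of chromosome 13, and its end is 1721 bases from the start of Slc6a18. Slc6a19 ran from 144.7 through 226.0 to 403.1 CPM in PBS-cKOt and from 282.5 through 366.6 to 459.0 CPM in PBS-control. Its groups overlapped, with 6 of 9 PBS-cKOt libraries below every PBS-control library. On the log2 scale the difference was -0.58 ± 0.19 (adjusted p = 0.0222), and -0.45 (adjusted p = 0.0676) without the 4 libraries that stood apart.

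The other apical calls were small. Slc6a20a, the imino acid carrier SIT1, ran from 22.3 through 25.4 to 31.2 CPM in PBS-cKOt and from 24.5 through 29.3 to 33.5 CPM in PBS-control, a log2 fold change of -0.21 ± 0.07 (adjusted p = 0.023). The groups overlapped, with 4 of 9 PBS-cKOt libraries below every PBS-control library. Slc6a8 differed by -0.19 ± 0.07 (adjusted p = 0.0378), or -0.16 (adjusted p = 0.13) without the 4 libraries. The pair of cystine transport chains was not called. Slc3a1 ran from 463.2 through 605.5 to 676.9 CPM in PBS-cKOt and from 546.8 through 646.0 to 759.4 CPM in PBS-control, with a difference of -0.11 on the log2 scale and a 95% interval from -0.29 to 0.07. Slc7a9 ran from 96.7 through 128.9 to 158.8 CPM in PBS-cKOt and from 120.4 through 129.0 to 151.0 CPM in PBS-control, with an interval from -0.16 to 0.14. Prepl lies on the opposite strand over 26.5% of the exon bases of Slc3a1, and whether counting used strand is not given in the sources used here.

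Cltrn encodes collectrin, a protein that carries B0AT1 and its relatives to the brush border. It stood at 1980 to 2836 CPM in PBS-cKOt and at 1159 to 1748 CPM in PBS-control, so the groups did not overlap. It rose 1.57-fold (adjusted p = 1.48e-08). Of 25 other tested amino acid transport genes (30 listed) 12 were called (48.0%, against 23.4% of all genes), 8 higher and 4 lower. That list was drawn up with earlier results of these data known. Slc6a9, the glycine carrier GLYT1, stood at 18.1 to 25.8 CPM in PBS-cKOt and at 30.8 to 42.8 CPM in PBS-control (adjusted p = 4.1e-10). Slc7a12, a light chain-like amino acid carrier, rose 11.7-fold (adjusted p = 1.43e-10), and Slc25a22, a mitochondrial glutamate carrier, rose 1.99-fold (adjusted p = 1.2e-08).

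On the basolateral side 1 of 7 members was called (14.3%, against 23.4% of all genes). Slc6a13, the GABA and betaine carrier GAT2, was higher by 0.19 ± 0.07 on the log2 scale (adjusted p = 0.032). With the replicate number as a block its adjusted p was 0.0506. The 7 members' median log2 fold change was 0.124.

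Carriers that supply the cell with cationic amino acids moved in opposite directions. Slc7a2 ran from 2.12 through 4.09 to 7.53 CPM in PBS-cKOt and from 4.53 through 9.32 to 11.2 CPM in PBS-control. Each of the 9 PBS-cKOt libraries lay below the PBS-control median, and 5 lay below every PBS-control library. The estimated log2 change was -0.91 ± 0.19 (adjusted p = 0.000288), or 1.87-fold lower. Slc7a1, which encodes the broadly expressed CAT1, stood at 8.39 to 14.4 CPM in PBS-cKOt and at 6.73 to 10.3 CPM in PBS-control. It differed by 0.40 ± 0.09 (adjusted p = 0.00168), with 5 of 9 PBS-cKOt libraries above every PBS-control library. None of the other 7 tested cell supply carriers was called in the fit to all libraries. Slc1a5 was called by edgeR without the 4 libraries and by voom, and Slc7a5 by voom.

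Slc36a1 encodes PAT1, which lets small amino acids out of lysosomes together with protons. It ran from 85.4 through 121.1 to 133.1 CPM in PBS-cKOt and from 135.6 through 144.8 to 165.3 CPM in PBS-control, and the groups did not overlap. The fitted log2 fold change was -0.29 ± 0.07 (adjusted p = 0.00137). The lysosomal cystine carrier Ctns, the arginine sensor Slc38a9, Slc15a4, Slc36a4 and Slc38a10 were not called, with log2 fold changes from -0.08 to 0.11.

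The mitochondrial carriers split. Slc25a15 exchanges ornithine for citrulline, a step of the urea cycle in liver. It ran from 209.5 through 243.0 to 268.0 CPM in PBS-cKOt and from 170.7 through 186.9 to 220.6 CPM in PBS-control, with 8 of 9 PBS-cKOt libraries above every PBS-control library. The log2 fold change was 0.37 ± 0.06 (adjusted p = 7.55e-06). Slc25a13 encodes citrin, an aspartate and glutamate exchanger of the malate-aspartate shuttle. It ran from 111.0 through 138.2 to 156.9 CPM in PBS-cKOt and from 151.0 through 172.5 to 210.3 CPM in PBS-control, and 7 of 9 PBS-cKOt libraries lay below every PBS-control library. It differed on the log2 scale by -0.33 ± 0.07 (adjusted p = 0.000876). Its paralog Slc25a12 (aralar) ran from 67.3 through 92.3 to 110.3 CPM in PBS-cKOt and from 73.1 through 86.4 to 99.0 CPM in PBS-control, and was not called (0.08, 95% interval -0.09 to 0.24).

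**Figure D3:**
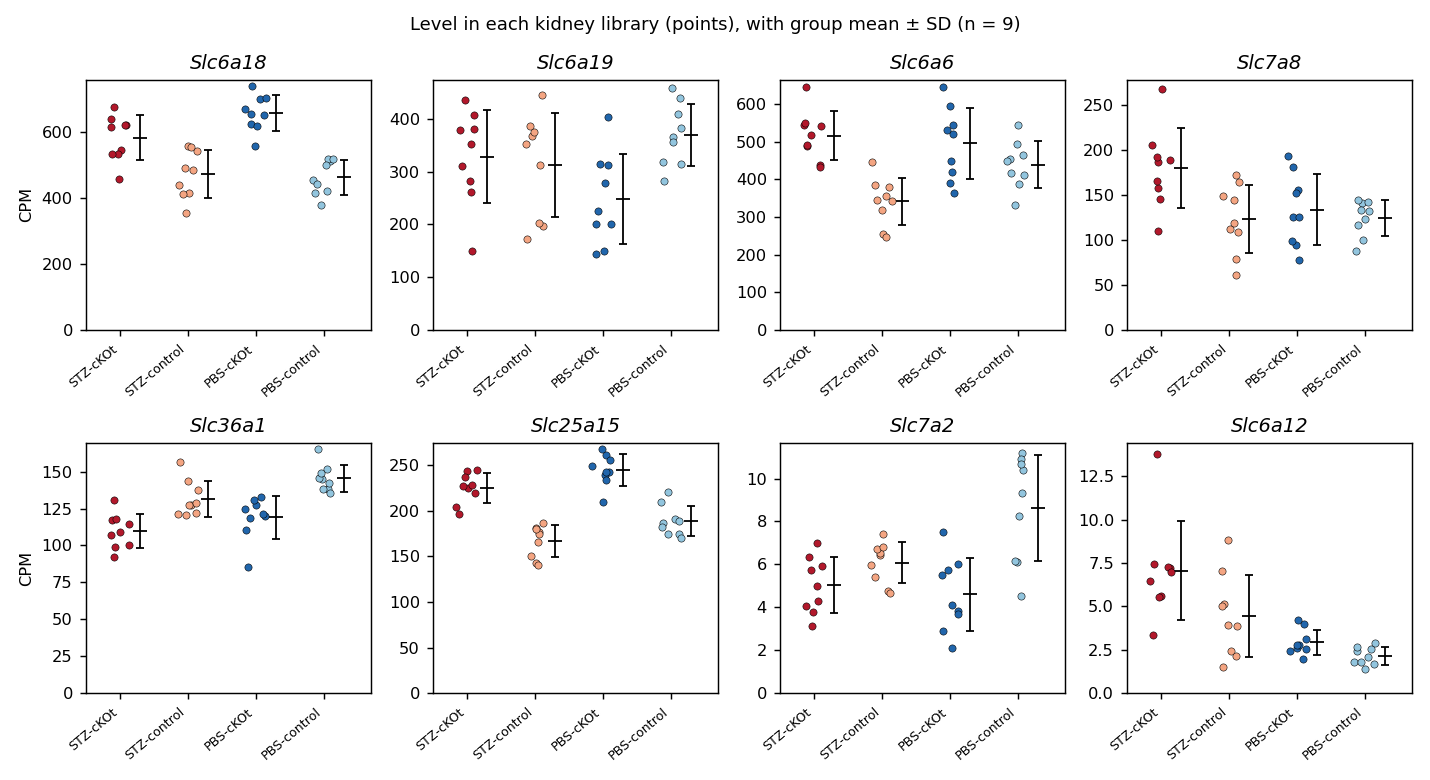
CPM of 8 members in each of the 36 libraries (points), with the group mean and SD beside them. Slc6a18 and Slc25a15 are higher and Slc36a1 lower in cKOt under both treatments, Slc6a6 is lowest in STZ-control, Slc7a2 is highest in PBS-control, and Slc6a12 is higher in the STZ groups.

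In diabetic mice the deletion of Bmal1 was followed by 8 members called higher and 3 lower, or 6 and 4 without the 4 libraries that stood apart. Slc6a6, the taurine carrier, was 1.51-fold higher in STZ-cKOt than in STZ-control. The basolateral carriers Slc7a8 (LAT2), Slc16a10 (the aromatic amino acid carrier TAT1) and Slc6a12 (the betaine carrier BGT1) were called higher too, and each of these 3 calls was lost when libraries were left out. The glutamine carrier Slc1a5 (ASCT2) and the large neutral amino acid carrier Slc7a5 (LAT1) were lower. A total of 11 of 34 members were called (32.4%), against 19.6% of all genes, of which 9.52% were higher and 10.1% lower. The median was 0.030 for members and -0.008 for all genes.

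Slc6a6 ran from 433.0 through 516.7 to 644.8 CPM in STZ-cKOt and from 246.8 through 345.8 to 446.9 CPM in STZ-control, with 7 of 9 STZ-cKOt libraries above every STZ-control library. On the log2 scale the difference was 0.60 ± 0.11 (adjusted p = 5.26e-05). In PBS mice Slc6a6 differed by 0.17 ± 0.11 (edgeR adjusted p = 0.252) and was not called in the fit to all libraries. There voom called it, as did edgeR without the 4 libraries that stood apart. Slc6a18 ran from 458.9 through 615.5 to 676.5 CPM in STZ-cKOt and from 353.4 through 485.4 to 557.3 CPM in STZ-control, and 5 of 9 STZ-cKOt libraries were above every STZ-control library. It differed by 0.30 ± 0.08 (adjusted p = 0.0057). Slc6a19 was not called, at 149.0 to 436.2 CPM in STZ-cKOt and 173.3 to 446.5 CPM in STZ-control, with a 95% interval from -0.31 to 0.45 on the log2 scale. Cltrn rose 1.71-fold (adjusted p = 2.77e-10), to 1999 ± 232.0 CPM in STZ-cKOt against 1172 ± 117.1 CPM in STZ-control (SD, n = 9 each).

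For the cystine pair, Slc3a1 ran from 463.2 through 574.1 to 602.4 CPM in STZ-cKOt and from 396.2 through 589.2 to 700.7 CPM in STZ-control. Slc7a9 ran from 96.7 through 134.1 to 148.5 CPM in STZ-cKOt and from 97.8 through 116.2 to 132.8 CPM in STZ-control. Neither was called, although without STZ-cKOt 2, the lowest of its group for Slc7a9, that gene and Slc3a2 were. Another partner of Slc3a1 is Slc7a13 (AGT1), an acidic amino acid and cystine carrier of the last proximal segment, which was not listed among the members and is named after its values were seen. It stood at 229.4 to 568.5 CPM in STZ-cKOt and at 549.1 to 843.4 CPM in STZ-control (log2 fold change -0.64, adjusted p = 5.63e-05).

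Slc7a8 had 109.4 to 267.3 CPM (median 186.4) in STZ-cKOt and 61.1 to 171.6 CPM (median 118.2) in STZ-control. The estimated log2 change was 0.55 ± 0.17 (adjusted p = 0.0192). Slc16a10 had 42.6 to 81.4 CPM (median 61.4) in STZ-cKOt and 25.9 to 57.9 CPM (median 46.5) in STZ-control, a difference of 0.43 ± 0.13 (adjusted p = 0.014). For both genes STZ-control 7 and 8 were the lowest of their group. Without the 4 libraries that stood apart the differences were 0.39 (adjusted p = 0.0699) and 0.28 (adjusted p = 0.0613), so neither call held.

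Slc6a12 ran from 3.33 through 6.96 to 13.8 CPM in STZ-cKOt and from 1.53 through 3.92 to 8.82 CPM in STZ-control. Only 1 STZ-cKOt library, number 2, lay above every STZ-control library. The fitted log2 fold change was 0.67 ± 0.23 (adjusted p = 0.0348), and without STZ-cKOt 2 it was 0.49 (adjusted p = 0.12). In the fit to 2 groups it was 0.68 and not called (edgeR adjusted p = 0.0969). Of the other basolateral members, the heavy chain Slc3a2 stood at 129.4 to 242.6 CPM in STZ-cKOt and 110.7 to 169.6 CPM in STZ-control and was not called (0.28 ± 0.11). Among the other amino acid transport genes 13 of 25 were called (52.0%, against 19.6% of all genes), 9 higher and 4 lower. Slc7a12 rose 16.5-fold (adjusted p = 1.17e-11), and Slc6a9 fell to 14.4 ± 1.79 CPM in STZ-cKOt against 31.6 ± 4.50 CPM in STZ-control (SD, n = 9 each; adjusted p = 2.11e-13).

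Of the 9 tested cell supply carriers 2 were called (22.2%, near the 19.6% of all genes). Both were lower, while 4 of the 9 log2 fold changes were above 0. Slc1a5 ran from 25.9 through 28.7 to 35.0 CPM in STZ-cKOt and from 31.6 through 34.2 to 44.5 CPM in STZ-control, with 7 of 9 STZ-cKOt libraries below every STZ-control library. It differed by -0.30 ± 0.07 (adjusted p = 0.00261). Slc7a5 stood at 2.13 to 3.75 CPM in STZ-cKOt and 3.40 to 5.25 CPM in STZ-control, a difference of -0.46 ± 0.12 (adjusted p = 0.00508). ATF4 is a factor induced by amino acid shortage. Among 10 genes of the ATF4 response outside the members 2 fell and 1 rose (30.0%, against 19.6% of all genes). They were Ddit3 (-0.59 ± 0.15), Mthfd2 (-0.41 ± 0.13) and, upward, Sesn2 (0.23 ± 0.08). The largest adjusted p of the 3 was 0.0411.

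Inside the cell, Slc36a4 (PAT4, a proline and tryptophan carrier) ran from 17.2 through 21.8 to 24.2 CPM in STZ-cKOt and from 12.5 through 16.6 to 20.1 CPM in STZ-control. It differed by 0.39 ± 0.09 (adjusted p = 0.00123), with 6 of 9 STZ-cKOt libraries above every STZ-control library. Slc36a1 ran from 92.5 through 109.3 to 130.6 CPM in STZ-cKOt and from 120.9 through 127.1 to 156.8 CPM in STZ-control. It fell by 0.26 on the log2 scale (SE 0.07, adjusted p = 0.00448), and 8 of 9 STZ-cKOt libraries lay below every STZ-control library. Both lysosomal carriers thus passed the test in opposite directions.

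Slc25a15 ran from 196.2 through 227.1 to 244.4 CPM in STZ-cKOt and from 141.0 through 174.6 to 186.2 CPM in STZ-control, and the groups did not overlap. The log2 fold change was 0.43 ± 0.06 (adjusted p = 5.32e-07). Slc25a12 ran from 90.1 through 102.3 to 121.6 CPM in STZ-cKOt and from 60.7 through 93.0 to 98.1 CPM in STZ-control, a difference of 0.27 ± 0.08 (adjusted p = 0.0147). Slc25a13 was not called, at 112.7 to 151.7 CPM in STZ-cKOt and 111.8 to 160.1 CPM in STZ-control.

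The knockout comparisons in PBS and in STZ mice share no library. Slc6a18, Slc25a15 and Slc36a1 were called in both, each in the same direction, which is 30.0% of the 10 members called in PBS mice and 27.3% of the 11 called in STZ mice. The overlap among all genes tested was not counted, so whether these shares are high or low is not known. Markers of several cell types differed between genotypes too, first those of the last proximal segment, S3. Their 6 genes summed to 2440 to 4432 CPM in STZ-cKOt and 3156 to 5497 CPM in STZ-control, and to 4460 to 6459 CPM in PBS-cKOt and 5896 to 7209 CPM in PBS-control. Of these markers, which include Slc7a13, 4 were lower and 0 higher in STZ mice (66.7%), and 1 was lower in PBS mice (16.7%). Of all genes 19.6% were called in STZ and 23.4% in PBS knockouts. The 7 markers of the earlier segments summed to 6633 to 9684 CPM in STZ-cKOt and 6220 to 9196 CPM in STZ-control. In PBS mice they summed to 6967 to 10710 CPM in PBS-cKOt and 8721 to 10210 CPM in PBS-control. Of these 7 markers 1 was higher and 1 lower in STZ knockouts, and 2 were lower in PBS knockouts. The 4 macrophage markers summed to 58.8 ± 5.94 CPM in STZ-cKOt and 76.7 ± 8.69 CPM in STZ-control, and to 68.4 ± 4.73 CPM in PBS-cKOt and 76.4 ± 5.28 CPM in PBS-control (SD, n = 9 each). Of these 4 markers 2 were lower in STZ and 1 in PBS knockouts. The 4 stromal markers summed to 118.8 ± 11.6 CPM in STZ-cKOt and 144.5 ± 11.8 CPM in STZ-control, and to 102.1 ± 12.6 CPM in PBS-cKOt and 120.2 ± 20.6 CPM in PBS-control, with 1 of 4 lower in STZ and 2 of 4 lower in PBS knockouts. Endothelial markers summed to 228.7 ± 30.1 CPM in STZ-cKOt and 231.2 ± 31.6 CPM in STZ-control, and to 191.8 ± 46.5 CPM in PBS-cKOt and 235.8 ± 33.3 CPM in PBS-control, with 1 of 4 lower in PBS knockouts. The 5 distal markers summed to 3625 ± 421.0 CPM in STZ-cKOt and 4281 ± 375.5 CPM in STZ-control, and to 4268 ± 621.2 CPM in PBS-cKOt and 4624 ± 650.1 CPM in PBS-control, with 1 of 5 lower in STZ and 1 of 5 higher in PBS knockouts. None of these markers was at 0 in any group, and the part of these shifts in the carrier differences was not tested.

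With streptozotocin in mice with an intact clock 2 of 9 apical, 2 of 7 basolateral and 3 of 9 tested cell supply carriers were called. So were 2 of 3 mitochondrial and 0 of 6 lysosomal ones. The betaine carrier Slc6a12 was 2.06-fold higher in STZ-control than in PBS-control, and the light chain Slc7a6 and Slc7a1 were higher too. Slc6a20b was lower, as were Slc6a6, Slc25a13 and Slc1a4 (the neutral amino acid exchanger ASCT1), whose calls were lost without the 4 libraries that stood apart. In all 9 of 34 members were called (26.5%), 4 higher and 5 lower, against 12.3% of all genes, with 6.34% higher and 5.93% lower. The median was -0.026 for members and 0.005 for all genes. Without the 4 libraries that stood apart 4 members were called, which were Slc6a20b, Slc7a6, Slc6a12 and Slc7a1, and with limma's voom and quality weights 5 were.

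Slc6a20b, a paralog of the imino acid carrier gene, ran from 223.1 through 262.2 to 290.0 CPM in STZ-control and from 273.7 through 306.5 to 331.0 CPM in PBS-control. Of the 9 STZ-control libraries 7 lay below every PBS-control library. It differed on the log2 scale by -0.22 ± 0.05 (adjusted p = 0.00281). Slc6a20a ran from 23.6 through 26.7 to 32.1 CPM in STZ-control and from 24.5 through 29.3 to 33.5 CPM in PBS-control, a difference of -0.18 ± 0.07 that was not called. The genes lie 2204 bases apart on chromosome 9. Sacm1l lies on the opposite strand over 21.1% of the exon bases of Slc6a20b, and whether counting used strand is not given. Of the 50-base windows of Slc6a20a transcripts 15.3% also occur in Slc6a20b, and multi-mapped reads do not enter the counts, so how reads split between the genes is uncertain.

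Slc6a6 was lower by 0.36 on the log2 scale (log2 fold change -0.36 ± 0.11, adjusted p = 0.0215), at 246.8 to 446.9 CPM in STZ-control and 332.9 to 545.6 CPM in PBS-control. Without the 4 libraries the difference was -0.25 (adjusted p = 0.0981). Slc3a1 ran from 396.2 to 700.7 CPM in STZ-control and from 546.8 to 759.4 CPM in PBS-control. Slc7a9 ran from 97.8 to 132.8 CPM in STZ-control and from 120.4 to 151.0 CPM in PBS-control. Slc6a18 stood at 353.4 to 557.3 CPM in STZ-control and 378.0 to 518.9 CPM in PBS-control, and Slc6a19 at 173.3 to 446.5 CPM in STZ-control and 282.5 to 459.0 CPM in PBS-control. None of these 4 was called.

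Slc6a12 brings betaine into cells of the renal medulla, where it serves as an osmolyte. It ran from 1.53 through 3.92 to 8.82 CPM in STZ-control and from 1.37 through 2.08 to 2.89 CPM in PBS-control, with 6 of 9 STZ-control libraries above every PBS-control library. On the log2 scale the difference was 1.04 ± 0.25 (adjusted p = 0.00507), and voom with quality weights gave 0.67 (adjusted p = 0.0952). Slc7a6 ran from 4.84 through 7.50 to 9.70 CPM in STZ-control and from 4.16 through 5.76 to 6.38 CPM in PBS-control, a difference of 0.45 ± 0.12 (adjusted p = 0.00928). Of 5 other genes of the response to high osmolality, among them Slc5a3 (inositol uptake) and Akr1b3 (sorbitol synthesis), 0 were called by edgeR in any of the 4 pairwise comparisons. At an unadjusted p under 0.05 the count was 1 here and 0 in the others.

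Slc7a1 ran from 8.89 through 10.8 to 12.1 CPM in STZ-control and from 6.73 through 8.10 to 10.3 CPM in PBS-control. It differed by 0.37 ± 0.09 (adjusted p = 0.0076), with 6 of 9 STZ-control libraries above every PBS-control library. The cationic carrier Slc7a2 was not called, at 4.65 to 7.42 CPM in STZ-control and 4.53 to 11.2 CPM in PBS-control (-0.50 ± 0.18, adjusted p = 0.066), with 9 of 9 STZ-control libraries below the PBS-control median. The fit to 2 groups called it. Slc7a5 was higher by 0.39 ± 0.12 (adjusted p = 0.0305) and Slc1a4 lower by 0.27 (log2 fold change -0.27 ± 0.09, adjusted p = 0.0346), and neither call held without the 4 libraries (adjusted p = 0.111 and 0.087). Among the 10 ATF4 response genes 5 rose and 0 fell (50.0%, against 12.3% of all genes). The log2 fold changes were 0.80 ± 0.18 for Trib3, 0.49 ± 0.11 for Aldh18a1, 0.56 ± 0.13 for Mthfd2 and 0.34 ± 0.08 for Sesn2.

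Both mitochondrial calls were downward and neither held without the 4 libraries. Slc25a13 ran from 111.8 through 150.8 to 160.1 CPM in STZ-control and from 151.0 through 172.5 to 210.3 CPM in PBS-control (log2 fold change -0.26 ± 0.07, adjusted p = 0.015, or -0.17 with 0.104 without them). Slc25a15 differed by -0.18 ± 0.06 (adjusted p = 0.0429, or -0.11 with 0.246). Slc25a12 ran from 60.7 through 93.0 to 98.1 CPM in STZ-control and from 73.1 through 86.4 to 99.0 CPM in PBS-control and was not called. No lysosomal member was called by edgeR, by DESeq2 or by voom. At an unadjusted p under 0.05 edgeR had 2 of 6 (33.3%, against 26.6% of all genes).

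Of 25 other transport genes 7 were called (28.0%, against 12.3% of all genes), 3 higher and 4 lower. Slc38a3 encodes SNAT3, the carrier that brings glutamine into proximal cells for ammonia production, and rose 1.47-fold to 77.7 ± 23.7 CPM in STZ-control against 53.0 ± 13.9 CPM in PBS-control (SD, n = 9 each; adjusted p = 0.0187). Cltrn fell 1.23-fold (adjusted p = 0.00657). Slc36a2, the glycine and proline carrier PAT2, had 0 to 1.26 CPM in STZ-control and 0.317 to 7.85 CPM in PBS-control, where the median was 1.07 (log2 fold change -2.85 ± 0.72, adjusted p = 0.00716). Slc7a3, the cationic carrier CAT3, had 0.662 to 1.37 CPM in STZ-control and 0.274 to 0.998 CPM in PBS-control (0.89 ± 0.24, adjusted p = 0.0109).

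In mice without the tubular clock streptozotocin changed 8 of 34 members (23.5%), 4 higher and 4 lower. Of all genes 11.6% were called, 6.00% higher and 5.63% lower. The basolateral carriers Slc6a12 and Slc43a2, the neutral amino acid carrier LAT4, were higher in STZ-cKOt than in PBS-cKOt, as were Slc38a2 and Slc36a4. Slc6a20b, Slc6a13, Slc1a4 and Slc38a10 were lower. The members' median was 0.084, beside -0.001 for all genes. Without the 4 libraries 5 members were called, and without a filter on low counts 5 were.

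Slc6a20b ran from 221.4 through 237.9 to 271.6 CPM in STZ-cKOt and from 253.5 through 297.3 to 331.3 CPM in PBS-cKOt, with 6 of 9 STZ-cKOt libraries below every PBS-cKOt library. The estimated log2 change was -0.28 ± 0.05 (adjusted p = 0.000175). Slc6a20a ran from 20.1 through 24.1 to 25.1 CPM in STZ-cKOt and from 22.3 through 25.4 to 31.2 CPM in PBS-cKOt and was not called. Neither were Slc6a18, Slc6a19, Slc3a1 and Slc7a9. The log2 fold change of Slc15a2, the peptide carrier PEPT2, was -0.34 ± 0.14 and also missed the threshold, at 56.3 to 145.3 CPM in STZ-cKOt and 100.6 to 162.0 CPM in PBS-cKOt.

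Slc6a12 ran from 3.33 through 6.96 to 13.8 CPM in STZ-cKOt and from 1.97 through 2.75 to 4.20 CPM in PBS-cKOt, and 8 of 9 STZ-cKOt libraries were above every PBS-cKOt library. The fitted log2 fold change was 1.27 ± 0.24 (adjusted p = 0.000338), or 2.41-fold. Slc43a2 ran from 180.4 through 240.2 to 337.2 CPM in STZ-cKOt and from 115.4 through 165.7 to 225.3 CPM in PBS-cKOt, a difference of 0.52 ± 0.13 (adjusted p = 0.00749). For Slc43a2 6 of 9 STZ-cKOt libraries were above every PBS-cKOt library. Slc6a13, which lies 5342 bases from Slc6a12, ran from 82.6 through 96.1 to 103.4 CPM in STZ-cKOt and from 85.2 through 110.4 to 119.1 CPM in PBS-cKOt. It went the other way, by -0.22 ± 0.07 (adjusted p = 0.0229, or 0.0505 without the 4 libraries).

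Slc38a10, a glutamine carrier of internal membranes, ran from 114.5 through 138.9 to 154.9 CPM in STZ-cKOt and from 142.6 through 156.0 to 173.8 CPM in PBS-cKOt. It differed by -0.20 ± 0.06 (adjusted p = 0.0129), and 7 of 9 STZ-cKOt libraries lay below every PBS-cKOt library. Slc38a2 was higher by 0.35 ± 0.11 (adjusted p = 0.0287, or 0.0504 without the 4 libraries). Slc36a4 was higher by 0.27 ± 0.09 (adjusted p = 0.0454, or 0.137), and Slc1a4 lower (-0.27 ± 0.09, adjusted p = 0.0378). The Slc36a4 call was also lost with DESeq2 size factors in edgeR, no filter on low counts, the fit to 2 groups and the replicate block. No mitochondrial member was called by edgeR or DESeq2, with 1 of 3 (Slc25a12) at an unadjusted p under 0.05, which voom called. Of 25 other transport genes 6 were called (24.0%, against 11.6% of all genes), 2 higher and 4 lower. Slc38a3 stood at 125.1 ± 26.6 CPM in STZ-cKOt and 80.8 ± 14.7 CPM in PBS-cKOt (SD, n = 9 each, adjusted p = 0.00655). Slc7a13 fell 1.66-fold (adjusted p = 3.33e-05). Of the ATF4 genes 1 of 10 rose, Trib3 (0.79 ± 0.19).

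The STZ comparisons in control and in cKOt mice share no library, and Slc6a20b, Slc6a12 and Slc1a4 were called in both, each in the same direction. They are 33.3% of the 9 members called in control mice and 37.5% of the 8 called in cKOt mice. Here too the overlap among all genes was not counted. The Slc1a4 calls were lost under voom (adjusted p = 0.0618 in control and 0.0542 in cKOt mice) and with no filter on low counts (0.0693 and 0.0679). In cKOt mice the fit to 2 groups lost it too (0.0818), as leaving out the 4 libraries did in control mice. The Slc6a12 call in control mice was lost under voom, as given above. S3 markers were lower with STZ as well, 4 of 6 in control (66.7%) and 5 of 6 in cKOt mice (83.3%), with the sums given above. Of all genes 12.3% were called in control and 11.6% in cKOt mice. Of the 7 markers of the earlier segments 1 was lower in control mice, and 2 were higher and 2 lower in cKOt mice. The 3 injury markers summed to 5.84 ± 1.62 CPM in STZ-cKOt and 3.47 ± 0.899 CPM in PBS-cKOt, and to 9.49 ± 3.46 CPM in STZ-control and 4.16 ± 1.25 CPM in PBS-control (SD, n = 9 each). Their part in these differences was not tested.

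The difference between the STZ effects, equal to that between the knockout effects, was tested for every gene. By edgeR 0 of 34 members were called, and 0.0448% of all genes. DESeq2 and voom with quality weights called 0 members too. At an unadjusted p under 0.05 edgeR had 9 of 34 members (26.5%) and 12.4% of all genes. The differences noted above between PBS and STZ mice, such as for Slc6a19, Slc6a6 and Slc7a2, are not shown by this test to be unequal. Comparisons that share a group also share its error. The lower Slc6a6 in STZ-control than in PBS-control and the higher Slc6a6 in STZ-cKOt than in STZ-control rest on the same STZ-control libraries, and likewise for Slc25a13 in PBS-control.

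Summed by membrane, the 9 apical carriers took 2694 ± 213.6 CPM in STZ-cKOt, 2425 ± 271.1 CPM in STZ-control, 2776 ± 227.3 CPM in PBS-cKOt and 2711 ± 210.9 CPM in PBS-control (SD, n = 9 each). The 7 basolateral ones took 758.2 ± 130.2 CPM in STZ-cKOt, 621.4 ± 112.6 CPM in STZ-control, 622.4 ± 107.0 CPM in PBS-cKOt and 601.8 ± 65.5 CPM in PBS-control. Their ratio ran from 2.87 to 4.11 in STZ-cKOt and from 3.33 to 4.51 in STZ-control, and from 3.93 to 5.62 in PBS-cKOt and from 4.06 to 5.08 in PBS-control. The ratio was lowest on average in STZ-cKOt, at 3.61 ± 0.376, and the ranges of all 4 groups overlapped. By gene, 4 of 9 apical members were called in PBS knockouts (44.4%, against 23.4% of all genes), 1 higher and 3 lower, and 2 of the 3 lower calls were lost without the 4 libraries. In STZ knockouts 2 of 9 were called (22.2%, against 19.6% of all genes), both higher. Of the basolateral members 1 of 7 (14.3%) was called in PBS and 3 of 7 (42.9%) in STZ knockouts, all higher. Each of these 4 basolateral calls was lost under at least 1 alternative. This was the replicate block for Slc6a13, and leaving out the 4 libraries for Slc7a8 and Slc16a10. For Slc6a12 it was the fit to 2 groups and leaving out STZ-cKOt 2. Under STZ 0 apical members were higher and 2 lower in control mice (22.2%, against 12.3% of all genes), and 1 was lower in cKOt mice (11.1%, against 11.6%). On the basolateral side 2 were higher in control mice (28.6%), and 2 were higher and 1 lower in cKOt mice (42.9%). The sums weigh long and abundant transcripts most, and no test was made of them.

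**Figure D4:**
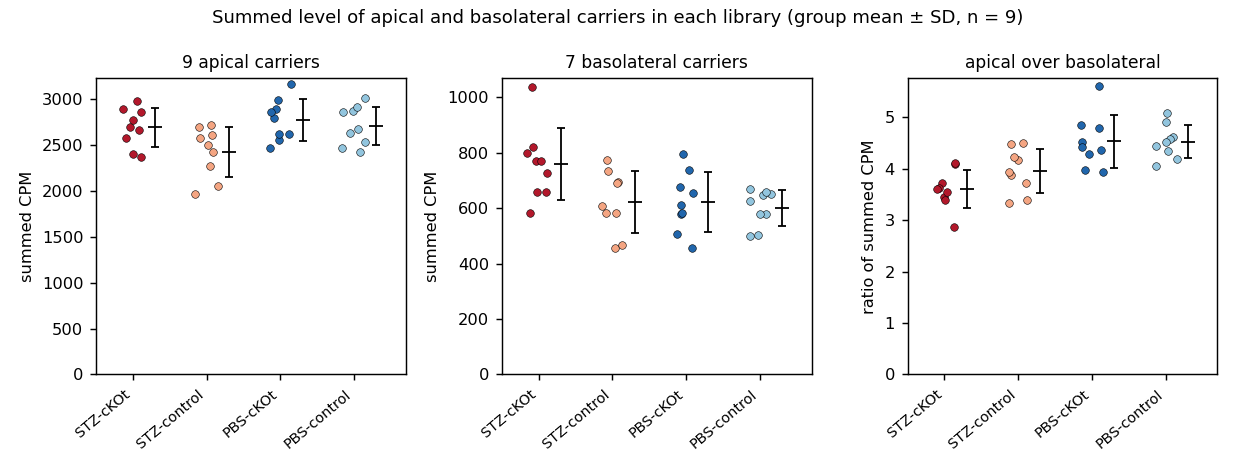
Summed CPM of the 9 apical and 7 basolateral carriers and their ratio in each library (points), with the group mean and SD. Apical sums overlap in all groups, and the basolateral sum averages 758.2 in STZ-cKOt. The ratio averages 3.61 in STZ-cKOt and 3.96 in STZ-control, against 4.53 in PBS-cKOt and PBS-control.

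In total 24 members were called in at least 1 of the 4 pairwise comparisons, and 10 tested members in none: Slc3a1, Slc7a9, Slc15a2, Slc3a2, Slc38a1, Slc38a4, Slc43a1, Slc15a4, Slc38a9 and Ctns. Ctns averaged 33.9 ± 2.45 CPM in STZ-cKOt, 33.1 ± 2.55 CPM in STZ-control, 32.9 ± 3.95 CPM in PBS-cKOt and 30.9 ± 2.81 CPM in PBS-control (SD, n = 9 each). Slc38a9 averaged 26.0 ± 1.32, 26.0 ± 1.52, 24.3 ± 2.77 and 25.3 ± 2.10 CPM in the same order of groups. Slc38a4 (SNAT4), at 1.21 to 5.52 CPM over all libraries, had the largest standard errors of the 10, with a log2 fold change of -0.53 ± 0.23 in PBS knockouts that was not called.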

How the data were processed

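Whole-kidney mRNA of 36 mice was sequenced from stranded poly(A) libraries, 9 libraries in each of 4 groups, each taken as 1 animal. The deposited values are raw counts per gene for 53715 genes. Per the submitters' processing notes, reads were trimmed with cutadapt 1.8, aligned to GRCm38 with STAR 2.5.3a and counted with HTSeq 0.9.1. The annotation release and counting options are not given in the sources used here. In each file 5 lines name no gene and were left out of library sizes. Of all reads in the files, 30.87% to 42.81% mapped to several places, 3.64% to 6.38% to no gene and 0.582% to 0.738% were ambiguous. Symbols and exon lengths came from GENCODE M21.

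Counts were filtered with filterByExpr, scaled by TMM and tested with edgeR 4.0.16 (R 4.3.3) by the quasi-likelihood F-test in 1 fit over all 4 groups, with 32 residual degrees of freedom. P-values were Benjamini-Hochberg adjusted over the 15637 genes tested, and a call is an adjusted p under 0.05. Intervals are 95% and assume a t distribution on the residual degrees of freedom. The 4 pairwise comparisons and their interaction were tested. Levels are CPM over TMM library sizes, and length slopes used log2 CPM with a pseudocount of 0.1. The members, role lists and pathway lists were chosen with earlier results of these data known. Lowest, median and highest levels were given for the 5 members with the smallest adjusted p in each pairwise comparison, those with a called fold of at least 1.5, and the pairs Slc3a1 and Slc7a9, Slc6a20a and Slc6a20b, Slc6a18 and Slc6a19, and Slc25a12 and Slc25a13. From other lists at most 4 genes per list and comparison were named, by adjusted p. Other tools were limma 3.58.1 (voom) and DESeq2 1.42.0, and other filters, the replicate number as a block and omitted libraries were tried.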

Additional observations from a re-analysis of the deposited data

Results flagged for a closer look

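In groups of 9, a library was marked where its gap to the nearest of the others was over 0.493 of the group's range (Dixon's 95% value). Of 136 groups of member values 8 held such a library, and chance marks about 1 in 20 groups. STZ-cKOt 2 had the lowest Slc7a9 of its group at 96.7 CPM, against 123.6 to 148.5 CPM in the others, and the highest Slc6a12 at 13.8 CPM, against 3.33 to 7.45 CPM. Slc7a9 was high in PBS-control 2 at 151.0 CPM, with the others at 120.4 to 134.6 CPM. Slc43a2 reached 337.2 CPM in STZ-cKOt 9, with the others at 180.4 to 257.2 CPM. Slc6a13 stood at 85.2 CPM in PBS-cKOt 9, below 108.8 to 119.1 CPM in the others. Slc38a2 stood at 67.3 CPM in PBS-control 3, below 81.3 to 94.4 CPM. Slc36a1 stood at 85.4 CPM in PBS-cKOt 1, below 110.4 to 133.1 CPM, and PBS-cKOt 1 is among the 4 libraries that stood apart. Slc25a13 stood at 210.3 CPM in PBS-control 1, above 151.0 to 175.8 CPM.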

How the results depend on the processing

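Of the 38 member calls 21 held under every alternative run and none of the 38 changed sign. DESeq2's test kept 38, its size factors in edgeR 37, a fit to 2 groups 33, a mean level of at least 1 CPM as the filter 38, voom with quality weights 32 and no filter on low counts 30. Without STZ-control 2 all 38 held, and without STZ-cKOt 2, an alternative added after seeing the data, 37 held. Without the 4 libraries that stood apart 26 held. The count of members called under STZ in control mice, 9, was 5 with voom and 4 without the 4 libraries. The count under STZ in cKOt mice, 8, was 5 without a filter and 5 without the 4 libraries. The cause of these drops was not tested. With the replicate number as a block 9, 12, 10 and 7 members were called in PBS knockouts, STZ knockouts, STZ in control and STZ in cKOt mice, and 0 in the interaction. The numbers did not pair the libraries: the median correlation of 54 same-number pairs was 0.0227, with 14 pairs over 0.1, and 7 of 36 libraries were closest to their own number. Single replicates other than these 2 were not left out, since groups held 9. Slc7a10 and Slc7a11, with at most 7 and 14 reads per library, entered edgeR with no filter on low counts and were not called.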
